A study of Mus musculus with 24 samples.

Results

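The Wnt ligands, Frizzled receptors and their signaling partners were followed as 49 genes of the 55288 listed in the gene tables of a mouse mammary tumor series. The genes were chosen by symbol: all 19 Wnt ligands, all 10 Frizzled receptors (Fzd), 5 co-receptors (Lrp5, Lrp6, Ror1, Ror2 and Ryk), the 3 R-spondin receptors (Lgr4 to Lgr6), the 4 R-spondins, 5 nuclear effectors (Lef1, Tcf7, Tcf7l1, Tcf7l2 and Ctnnb1), the receptor ligases Znrf3 and Rnf43, and Axin2. All 49 were listed in the table of cultured cells and in the table of tumors. Wnt proteins are secreted lipid-modified ligands that bind a Frizzled together with Lrp5 or Lrp6 on the receiving cell. Binding stops the destruction of β-catenin (Ctnnb1), which then enters the nucleus and acts with the Tcf/Lef factors, and Axin2, a destruction-complex scaffold, is a widely used target gene that feeds back on the pathway. R-spondins bind Lgr receptors and keep the ligases Znrf3 and Rnf43 from removing Frizzleds, while Ror1, Ror2 and Ryk serve branches that do not need β-catenin. In the mammary gland, Wnt ligands such as Wnt4 act in ductal branching, and Wnt1 was found as an insertion site of the mouse mammary tumor virus.

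RNA-seq covered 24 libraries of D2.1 and D2A1, cell lines derived from mouse D2 hyperplastic alveolar nodules, of which D2.1 is known for dormancy and D2A1 for rapid growth. Cultured cells gave 3 libraries per line. Tumors were grown from cells implanted in the mammary fat pad of female mice. Balb/c hosts (BALB/c), which have adaptive immunity, gave 4 tumor libraries per line. SCID beige hosts (SCID-beige), which lack T and B cells and have defective NK cells, gave 5 per line. No group carried an engineered allele or a drug. Each line is an established cell line, so that differences between the lines hold for those lines only. The study collected these tumors at about the same volume, and D2.1 tumors grew more slowly there. In tumors, the line and the time spent in the host therefore cannot be told apart. Tumor labels describe individual tumors, whereas nothing in the labels says whether the cultures were grown separately, so p-values for cultures measure the spread between those libraries.

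Total counts per library ran from 13566949 to 24818234, and a floor of 3 counts corresponded to 0.142 to 0.204 CPM (counts scaled to a common library total after TMM normalization). Levels of 1 gene are given in CPM, since the gene lengths behind the deposited FPKM values (counts scaled by depth and by gene length) differed between both tables, with a median tumor-to-cell length ratio of 0.592 over 12086 genes. Different genes are therefore ranked by FPKM within 1 table only. In cells and tumors the lengths were 4260 and 1700 bases for Axin2, 3623 and 1436 for Ctnnb1, and 3685 and 6720 for Fzd4. Whether reads were counted over the same gene models in both is not given. CPM in culture and in tumors are thus compared with that limit. Differences were tested with edgeR's quasi-likelihood test over all genes and called at a Benjamini-Hochberg adjusted p under 0.05, and ± after a log2 fold change is its standard error (SE). All 7 mammary tumor epithelial markers were detected in each of the 6 groups, with summed levels of 2510 to 4980 CPM in cultured D2.1 cells, 140 to 365 CPM in cultured D2A1 cells and 355 to 1230 CPM in tumors. Summed levels of 11 T cell markers were 117 to 298 CPM in D2.1 BALB/c tumors and 17.2 to 43.8 CPM in D2A1 BALB/c tumors, and D2.1 BALB/c tumor 1 had 407 CPM of milk protein markers and tumor 4 had 165 CPM of skin markers. Tumor 1 also had the most adipocyte (452 CPM) and skeletal muscle markers (362 CPM). Skeletal muscle markers stood at 264 and 198 CPM in D2.1 SCID-beige tumors 4 and 5, against 1.43 to 18.3 CPM in tumors 1 to 3, and tumor 4 had the most epithelial markers of all tumors (1230 CPM). Without tumor 4 or tumor 5, as with all 5, 17 genes were called between the lines in SCID-beige tumors. They were not the same genes throughout, since Fzd5 lost its call without tumor 5. Summed levels of 8 fibroblast markers were 6490 to 15900 CPM in D2.1 tumors and 1450 to 3590 CPM in D2A1 tumors, and 2050 to 2930 CPM in cultured D2.1 cells. In cultured D2A1 cells they summed to 138 to 147 CPM, with 5 of the 8 detected and Dcn, Lum and Dpt at 0. In whole tumors, fewer cells of a type and less RNA per cell cannot be told apart. Exons of 10 of the 49 genes (Wnt5a, Wnt7b, Wnt11, Fzd5, Fzd6, Axin2, Rspo3, Lef1, Tcf7l1 and Ctnnb1) overlap those of another gene on the opposite strand, whose reads cannot be told from theirs because the strand setting of the counting is not given in the sources used here.

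RefSeq promoter sequences (GRCm38.p6) were found for 35 of the 49 genes, 45 promoters in all. The 250 bases before each start were searched on both strands for CTTTGAT and CTTTGAA, the core letters that Tcf/Lef factors bind. A match was found in 2 of the 45 promoters, those of Wnt11 and Wnt5b, against 7.48% of all 32851 promoters in the table. These promoters are shown with that of Axin2, the feedback target, and were chosen after the values were seen. The matched letters are in capitals.
Axin2, chr11:108920099-108920348, plus strand: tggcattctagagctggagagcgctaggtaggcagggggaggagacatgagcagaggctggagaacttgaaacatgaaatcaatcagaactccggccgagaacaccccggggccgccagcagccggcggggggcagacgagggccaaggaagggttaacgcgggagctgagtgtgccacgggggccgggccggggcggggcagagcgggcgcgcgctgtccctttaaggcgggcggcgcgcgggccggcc
Wnt11, chr7:98834862-98835111, plus strand: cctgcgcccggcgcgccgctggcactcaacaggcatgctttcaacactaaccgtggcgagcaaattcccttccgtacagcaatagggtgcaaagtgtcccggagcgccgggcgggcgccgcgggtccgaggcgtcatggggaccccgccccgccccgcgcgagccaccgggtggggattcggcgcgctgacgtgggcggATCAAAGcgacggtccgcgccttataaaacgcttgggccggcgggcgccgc
Wnt5b, chr6:119449387-119449636, minus strand: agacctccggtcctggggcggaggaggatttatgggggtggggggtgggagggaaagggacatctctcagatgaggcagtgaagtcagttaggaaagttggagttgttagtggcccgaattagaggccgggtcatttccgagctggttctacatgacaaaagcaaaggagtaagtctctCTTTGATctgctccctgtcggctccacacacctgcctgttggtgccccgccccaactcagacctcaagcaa
The match lay 51 bases before the start of Wnt11, on the strand opposite to the gene, and 71 bases before that of Wnt5b, on the gene's own strand. The table lists 1 more promoter of Wnt11 and 2 more of Wnt5b, which hold neither motif. The Axin2 window holds neither motif, which says only that these letters are not in it.

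By position, 4 pairs of Wnt genes lie within 100000 bases of each other (GENCODE M21, GRCm38). Wnt6 (chr1:74771892-74785322) and Wnt10a (chr1:74791516-74804179) are 6194 bases apart on the same strand, and Wnt10b (chr15:98770712-98778150) and Wnt1 (chr15:98789857-98793837) are 11707 bases apart. Wnt3a (chr11:59248033-59290752) neighbors Wnt9a (chr11:59306928-59333552) at 16176 bases, and Wnt9b (chr11:103727364-103749821) neighbors Wnt3 (chr11:103774150-103817957) at 24329 bases. Wnt9a reached 137 CPM while its neighbor Wnt3a was at 0 in every library but D2.1 BALB/c tumor 1, which had 0.221 CPM. Wnt10b had 16.2, 15.8 and 26.5 CPM in cultured D2.1 cells, where Wnt1 had 0, 0 and 0.172 CPM. Wnt9b did not exceed 0.133 CPM and Wnt3 0.386 CPM in any library. Wnt6 and Wnt10a both had their highest value in D2.1 BALB/c tumor 4, at 7.26 CPM and 66.3 CPM.

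The first question was which parts of the pathway each group held. With presence taken as a group mean of at least 1 FPKM, 25 genes were present in cultured D2.1 cells and 19 in cultured D2A1 cells. In tumors, 34 were present in D2.1 and 29 in D2A1 from BALB/c mice, and 29 in each line from SCID-beige mice. Some genes lay near the cutoff. In D2.1 BALB/c tumors Wnt2 had a mean of 1.14 FPKM (0.393 to 2.3) and Wnt5b 1.38 FPKM (0.236 to 3.08). Wnt2 counted as absent in D2A1 BALB/c tumors at a mean of 0.997 FPKM. Genes present in all 6 groups numbered 17: Wnt7b, Fzd1, Fzd2, Fzd3, Fzd5, Fzd6, Fzd7, Lrp5, Lrp6, Ryk, Lgr4, Rspo2, Tcf7, Tcf7l1, Tcf7l2, Ctnnb1 and Znrf3. In no group were 13 genes present, namely Wnt1, Wnt3, Wnt3a, Wnt7a, Wnt8a, Wnt8b, Wnt9b, Wnt16, Fzd9, Fzd10, Lgr5, Rspo1 and Rspo4. Most Frizzleds and the core receptor and nuclear genes were thus present throughout. Of the ligands, 4 were present in cultured D2.1 cells, 2 in cultured D2A1 cells and 7 to 11 in the groups of tumors. Counts of cultures and of tumors are not on 1 scale, since the gene lengths behind FPKM differed between them. Lgr6 had a mean of 4.29 CPM in D2A1 cultures and in D2A1 SCID-beige tumors, but 0.632 FPKM in the former and 1.37 FPKM in the latter. The receptor sets were close in size, with 6 to 8 Frizzleds present in each group.

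Ctnnb1 had the highest FPKM of the 49 genes in every group. Among ligands, Wnt7b led in 5 groups, with a mean of 11.8 ± 1.59 FPKM (SD, n = 3) in cultured D2.1 cells and, in the tumor table, 78.6 ± 33.2 and 73.7 ± 10.8 FPKM (SD, n = 4) in D2.1 and D2A1 tumors of BALB/c mice. In SCID-beige tumors Wnt7b had 64.8 ± 10 FPKM in D2.1 and 106 ± 15.2 FPKM in D2A1 (SD, n = 5). Cultured D2A1 cells were the exception, with Wnt4 leading at 5.9 ± 1.9 FPKM and Wnt7b at 1.43 ± 0.649 FPKM (SD, n = 3). Behind Wnt7b, Wnt9a came second in D2.1 tumors of both hosts and Wnt4 second in D2A1 tumors of both hosts. Fzd2 had the highest mean of the Frizzleds in all groups but cultured D2.1 cells, where Fzd6 had 18.9 ± 6.64 FPKM and Fzd1 13.9 ± 5.24 FPKM, a difference within their spread. The lead of Fzd2 was also within the spread in D2.1 SCID-beige tumors, with 20.3 ± 5.01 FPKM against 19.6 ± 12.2 FPKM for Fzd1. In cultured D2A1 cells Fzd2 had 21.2 ± 0.963 FPKM and Fzd7 19.7 ± 1.83 FPKM, likewise within the spread. Rspo2 led the R-spondins in every group, with means of 11.8 ± 1.01 FPKM in cultured D2.1 and 12.6 ± 0.713 FPKM in cultured D2A1 cells (SD, n = 3).

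**Figure D1:**
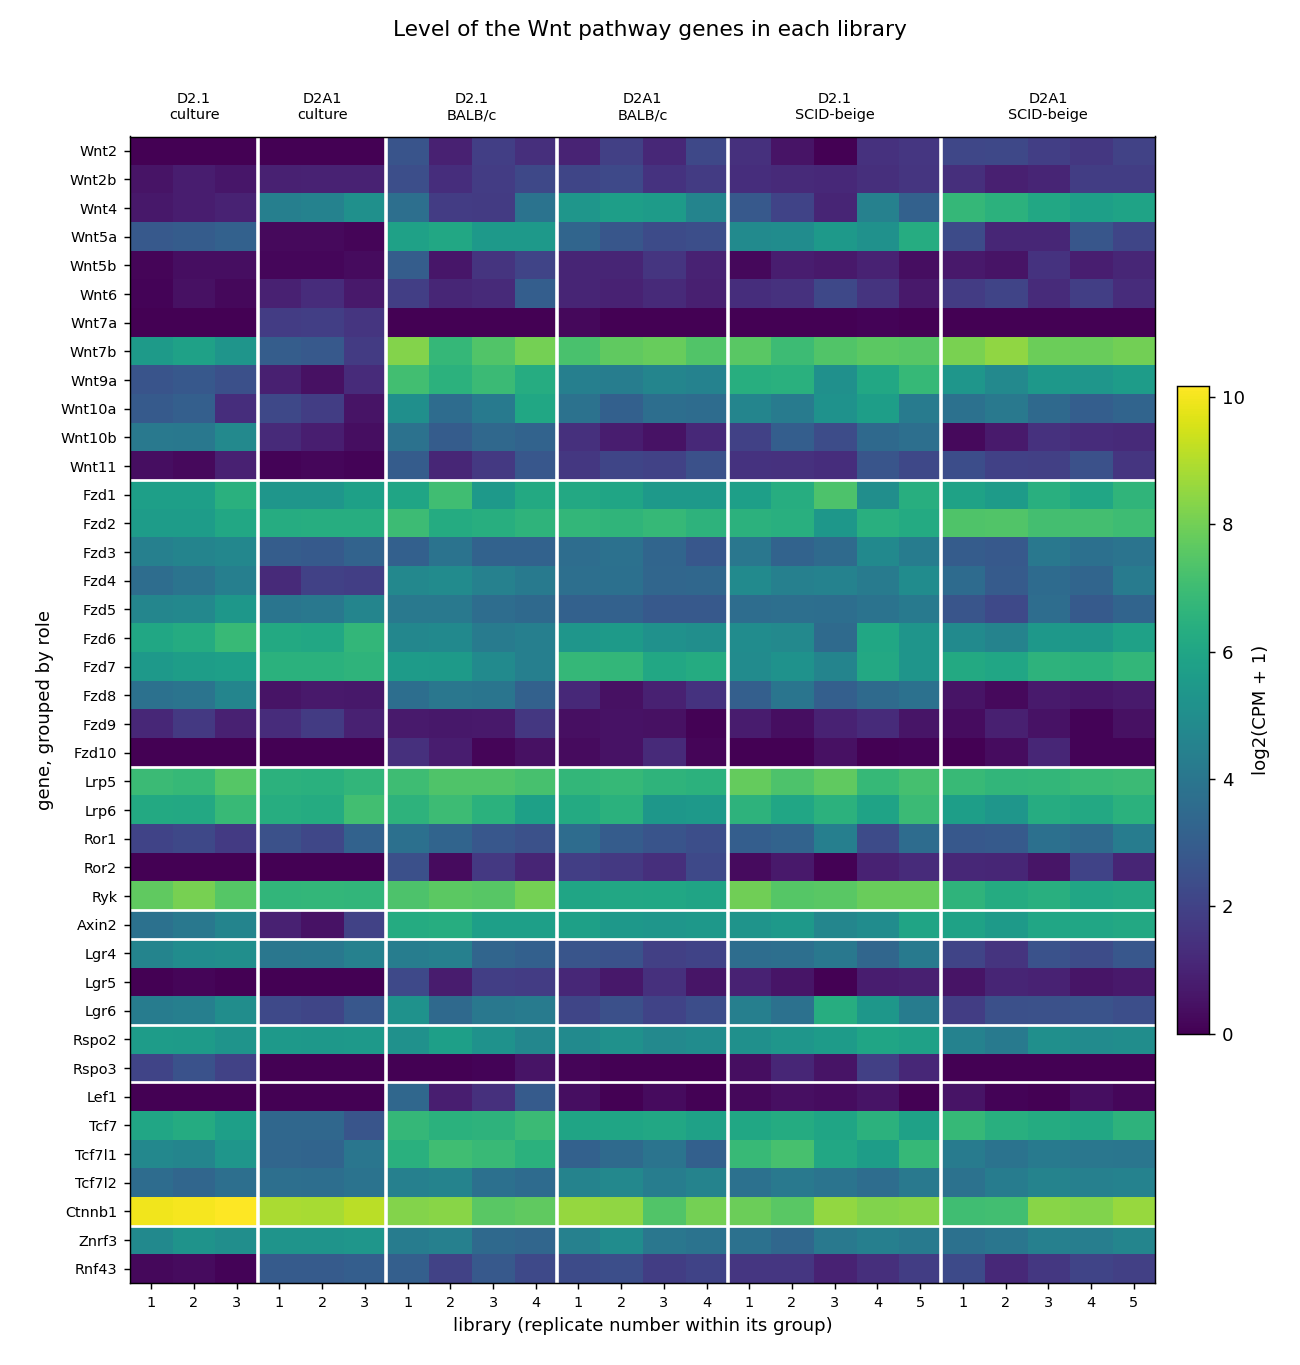
Level of the 40 genes tested in at least 1 comparison (rows, grouped by role) in each of the 24 libraries (columns, by group), as log2(CPM + 1), with brighter colors for higher levels. Ctnnb1 forms the brightest row, Wnt7b, Axin2 and Wnt9a are darkest in the 3 cultured D2A1 libraries, and Wnt2, Ror2 and Lef1 are at 0 in all 6 cultured libraries.

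The lines were compared in culture, in BALB/c tumors and in SCID-beige tumors, 3 comparisons that share no library. In culture, 23 of 33 tested genes were called, 17 higher and 6 lower in D2.1 cells, where 44.9% of all genes tested were called, 24.2% higher and 20.7% lower. Same-numbered cultures all correlated above 0.1. D2A1 culture 2, though, correlated more with D2.1 culture 1 (0.357) than with its own number (0.184), so pairing by number was not shown. With a replicate block and the GC slope 19 were called, without Wnt6, Wnt7a, Lrp5 and Rspo3. That fit has nearly as many terms as libraries, so a lost call there says little. The GC slopes of D2.1 (-0.0225 to -0.0184) and D2A1 cultures (-0.0449 to -0.0297) also did not overlap. In BALB/c tumors 17 of 36 were called, 14 higher and 3 lower in D2.1, against 32.6% of all genes (16.8% higher and 15.8% lower). Same-numbered BALB/c tumors also correlated positively, yet D2.1 tumor 4 correlated more with D2A1 tumor 3 (0.414) than with D2A1 tumor 4 (0.345). With a replicate block and the GC slope of each library together, 3 of these genes were called, Wnt5a, Fzd8 and Tcf7l1, all higher in D2.1. This fit too has nearly as many terms as libraries, so its lost calls say little. In SCID-beige tumors 17 of 35 were called, 13 higher and 4 lower, against 32.1% of all genes (17.2% higher and 14.8% lower). Median log2 fold changes of the tested genes were 0.70, 0.52 and -0.07, beside -0.02, -0.02 and 0.02 over all genes. Of the 30 genes tested in all 3 comparisons, 6 were called in none of them (Fzd1, Lrp6, Ror1, Tcf7l2, Wnt2b and Znrf3) and 11 were higher in D2.1 in each of them: Wnt5a, Wnt9a, Wnt10b, Fzd4, Fzd5, Fzd8, Lrp5, Ryk, Lgr4, Lgr6 and Tcf7l1. Wnt4 and Fzd7 were lower in D2.1 in each of them. Wnt2, Wnt5b, Wnt11, Ror2 and Lgr5 had too few reads for a test in culture and were not called in tumors, and Fzd9 was tested in culture alone and was not called. Fzd10 was tested only over all 18 tumors together. The 9 genes too low for any test were Wnt1, Wnt3, Wnt3a, Wnt8a, Wnt8b, Wnt9b, Wnt16, Rspo1 and Rspo4.

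Among the ligands, Wnt5a, which mostly signals without β-catenin, was higher in D2.1 in every setting. It had 6.16, 6.72 and 7.91 CPM in cultured D2.1 cells and 0.185, 0.182 and 0.114 CPM in cultured D2A1 cells, close to the floor, a log2 fold change of 5.38 ± 0.35, adjusted p = 5.8e-06. BALB/c tumors had 55.1, 67.8, 44.6 and 44.2 CPM in D2.1 against 8.84, 5.62, 3.97 and 4.51 CPM in D2A1 (3.17 ± 0.29, adjusted p = 2.7e-05). In SCID-beige tumors the values were 28.4, 29.4, 44.4, 34.3 and 76.8 CPM against 4.06, 1.12, 1.16, 5.67 and 3.37 CPM (3.79 ± 0.46, adjusted p = 3.7e-05). The lines did not overlap in any setting, and D2.1 was 9.02-fold and 13.8-fold higher in the 2 kinds of tumor. Fibroblast markers also moved with the line in tumors and in culture, and their part in the tumor values was not tested.

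Wnt10b, a ligand that acts through β-catenin in mammary and fat cells, had 16.2, 15.8 and 26.5 CPM in cultured D2.1 cells and 1.3, 0.79 and 0.285 CPM in D2A1 cells (4.63 ± 0.44, adjusted p = 5.7e-05). In BALB/c tumors, D2.1 had 13.1, 6.85, 9.78 and 8.42 CPM and D2A1 1.63, 0.769, 0.415 and 1.28 CPM (3.17 ± 0.43, adjusted p = 0.00033), and in SCID-beige tumors 2.91, 7.31, 4.13, 10 and 12 CPM stood against 0.199, 0.659, 1.7, 1.45 and 1.33 CPM (2.76 ± 0.53, adjusted p = 0.0013). D2.1 libraries were above all D2A1 libraries in each setting. Wnt9a had 5.23, 5.92 and 4.64 CPM in cultured D2.1 and 0.865, 0.365 and 1.37 CPM in cultured D2A1 cells (2.59 ± 0.41, adjusted p = 0.0011). Its levels in BALB/c tumors were 137, 92.3, 122 and 78.4 CPM in D2.1 and 19.8, 18.6, 23.8 and 21.5 CPM in D2A1 (2.33 ± 0.20, adjusted p = 1.6e-05), with no overlap. In SCID-beige tumors D2.1 had 81.4, 87.9, 33.1, 67.7 and 111 CPM and D2A1 39.6, 26.3, 41.9, 39.6 and 48.3 CPM (0.96 ± 0.27, adjusted p = 0.014), where D2.1 tumor 3 fell among the D2A1 tumors.

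Wnt10a, the neighbor of Wnt6, was called in tumors. It had 23.4, 17.7, 34.9, 50.9 and 17.6 CPM in D2.1 and 13, 16.5, 9.99, 7.12 and 8.74 CPM in D2A1 SCID-beige tumors, without overlap (1.37 ± 0.33, adjusted p = 0.0057). Levels in BALB/c tumors were 32.8, 11.2, 17.3 and 66.3 CPM in D2.1 and 13.3, 7.69, 11.6 and 11.2 CPM in D2A1, which overlapped (1.51 ± 0.47, adjusted p = 0.033). The highest of these, tumor 4, was the tumor with skin markers, and without tumor 4 and tumor 1, which had milk protein markers, the BALB/c call was lost (adjusted p = 0.47). It was also lost without either of them or without any 1 of the D2A1 BALB/c tumors. Wnt6 itself was lower in cultured D2.1 cells, at 0.0581, 0.379 and 0.172 CPM against 0.926, 1.46 and 0.627 CPM (-2.20 ± 0.61, adjusted p = 0.018), a call lost without D2.1 culture 1 or D2A1 culture 2, and its log2 fold change was -3.03 without D2.1 culture 2.

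The ligand that was lower in D2.1 in every setting was Wnt4, which serves progesterone-driven branching in the normal gland. Cultured D2A1 cells had 20.1, 22 and 33.4 CPM and D2.1 cells 0.581, 0.758 and 0.974 CPM, which put D2.1 32.3-fold lower (-5.01 ± 0.30, adjusted p = 4.5e-06). Tumors from BALB/c mice had 40, 51.1, 47.3 and 23.1 CPM in D2A1 and 12.3, 2.48, 2.42 and 13.7 CPM in D2.1 (-2.43 ± 0.56, adjusted p = 0.0077). SCID-beige tumors had 107, 91.6, 67.8, 52.7 and 58.9 CPM in D2A1 and 6.07, 3.12, 1.06, 21.3 and 7.92 CPM in D2.1 (-3.28 ± 0.57, adjusted p = 0.00067). No D2.1 library reached a D2A1 library of its setting, and within D2.1 the BALB/c tumors 1 and 4, which carried the milk protein and skin markers, were the higher ones. Without those tumors the BALB/c log2 fold change was -4.06. In SCID-beige mice it was -4.11 without D2.1 tumor 4, the tumor with the most epithelial markers, which was also the highest D2.1 SCID-beige tumor for Fzd3, Fzd6 and Fzd7. Wnt7a was detected in culture in D2A1 cells only, at 2.53, 2.67 and 2 CPM against 0 counts in all 3 D2.1 libraries, which made it at least 14.7-fold lower in D2.1 (against 3 counts per library, adjusted p = 0.00016, and 1 with the replicate block and GC slope). In D2A1 tumors it was at 0 but for 0.169 CPM in BALB/c tumor 1.

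**Figure D2:**
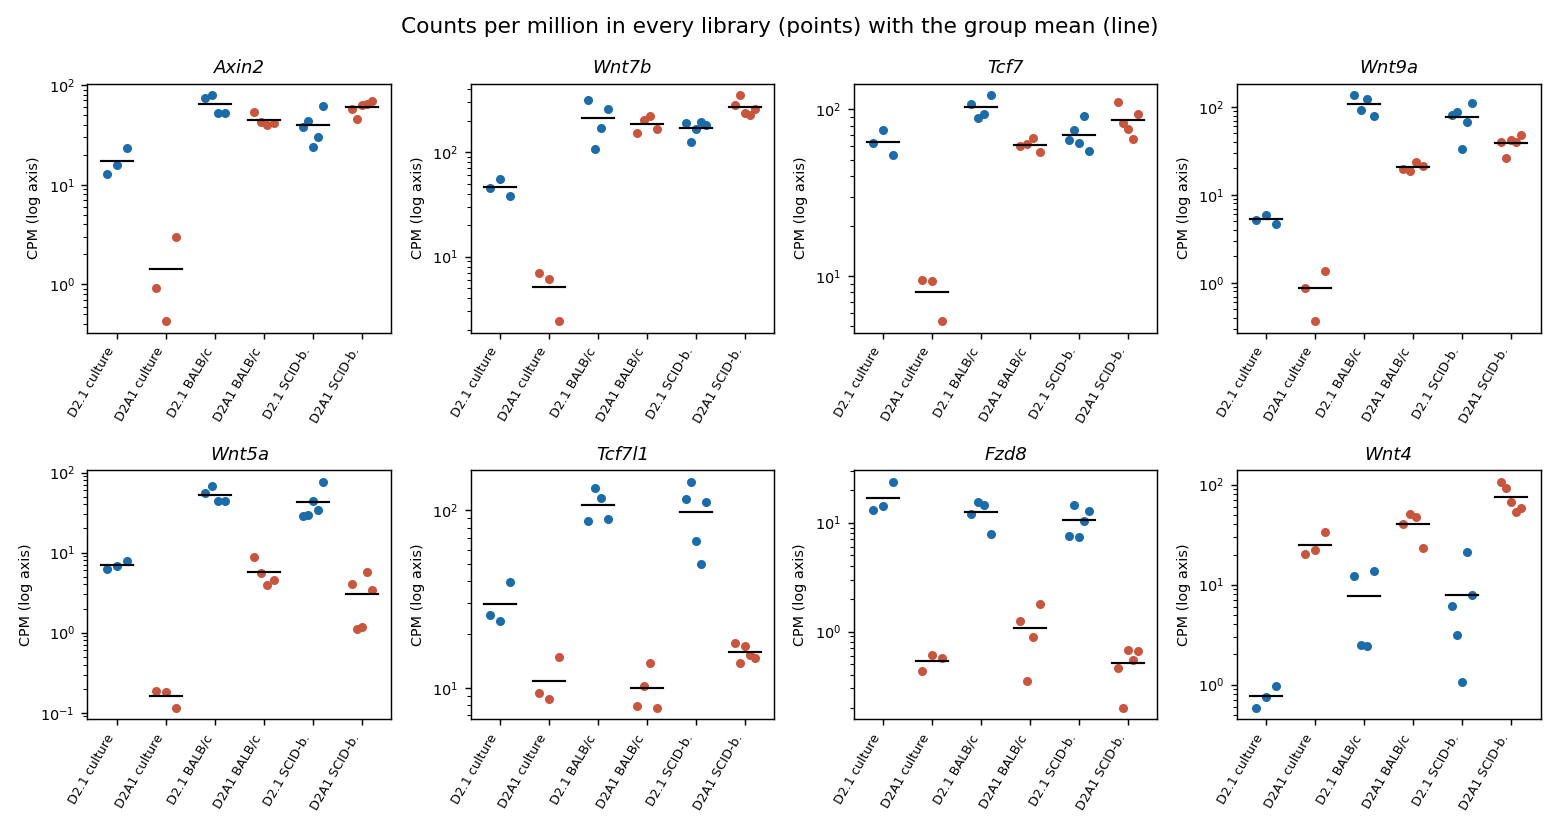
Level in CPM on a log axis for 8 genes in every library (points: blue for D2.1, red for D2A1), with the mean of each group as a line, in culture and in tumors from BALB/c and SCID-beige (SCID-b.) mice. Wnt5a, Tcf7l1 and Fzd8 are higher and Wnt4 lower in D2.1 in every setting, whereas Axin2, Wnt7b and Tcf7 are far lower in the cultured D2A1 cells than in any other group.

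Among the receptors, Fzd8 had the largest fold change in each setting. Its levels were 12.9, 14.1 and 23.7 CPM in cultured D2.1 cells and 0.432, 0.608 and 0.57 CPM in cultured D2A1 cells (4.96 ± 0.35, adjusted p = 9.8e-06). BALB/c tumors had 11.9, 15.3, 14.4 and 7.9 CPM in D2.1 and 1.24, 0.355, 0.889 and 1.78 CPM in D2A1 (3.51 ± 0.45, adjusted p = 0.00023), and SCID-beige tumors 7.55, 14.4, 7.42, 10.4 and 12.8 CPM and 0.465, 0.198, 0.679, 0.543 and 0.663 CPM (4.34 ± 0.37, adjusted p = 1.5e-06). There was no overlap in any setting. Fzd4, also the receptor of norrin in blood vessels, had 11.4, 14.1 and 20 CPM in cultured D2.1 and 1.3, 2.92 and 2.74 CPM in D2A1 cells (2.71 ± 0.34, adjusted p = 0.00029). Its difference was smaller in tumors, at 1.08 ± 0.23, adjusted p = 0.0047 in BALB/c and 1.08 ± 0.26, adjusted p = 0.0063 in SCID-beige mice, where D2.1 had 17.6 to 29.4 CPM and D2A1 6.59 to 18 CPM. The summed level of 7 endothelial markers, all detected in tumors, was 73 to 178 CPM in D2.1 tumors and 206 to 289 CPM in D2A1 tumors, with Vwf called higher in D2.1 in both hosts and 4 (BALB/c) or 5 (SCID-beige) of the others lower. Their part in the Fzd4 values was not tested. Fzd5 differed by 0.75 ± 0.26, 0.91 ± 0.25 and 0.90 ± 0.28 in the 3 settings (adjusted p = 0.042, 0.017 and 0.026), less firmly, since leaving out 1 library ended the call in 4 of 6, 1 of 8 and 4 of 10 fits. Those libraries were cultures 1 and 2 of D2A1 and 2 and 3 of D2.1, BALB/c tumor 4 of D2A1, and SCID-beige tumors 1, 2 and 4 of D2A1 and 5 of D2.1.

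Fzd7 was the Frizzled that was lower in D2.1 throughout. Its levels were 44.1, 49.8 and 53 CPM in cultured D2.1 and 88.7, 88.2 and 97.7 CPM in cultured D2A1 cells (-0.90 ± 0.12, adjusted p = 0.00045), and 46.6, 45.6, 28.4 and 20.2 against 108, 104, 67.4 and 75.5 CPM in BALB/c tumors (-1.36 ± 0.29, adjusted p = 0.0046). In SCID-beige tumors, 29.1, 35.1, 22.9, 68.5 and 38.1 CPM in D2.1 and 70.6, 63.4, 94.2, 88.8 and 106 CPM in D2A1 overlapped (-1.14 ± 0.26, adjusted p = 0.0043), since D2.1 tumor 4 reached the lower D2A1 tumors. Fzd2, the Frizzled with the highest mean FPKM in each group of tumors, had 90.5, 83.7, 41.2, 84.5 and 72.5 CPM in D2.1 and 165, 167, 138, 141 and 129 CPM in D2A1 SCID-beige tumors, without overlap (-1.0 ± 0.19, adjusted p = 0.0013). It had 123, 76, 82.4 and 97.4 CPM in D2.1 and 106, 99.4, 110 and 95 CPM in D2A1 BALB/c tumors, where it was not called (-0.15 ± 0.16, adjusted p = 0.52). In culture it had 47.7, 48.2 and 66.7 against 77.6, 80.6 and 80.4 CPM (-0.55 ± 0.15, adjusted p = 0.018), a call that was lost without D2.1 culture 1 or 2 or D2A1 culture 2. Fzd6, a Frizzled of planar polarity, had 24.8, 27.4, 18 and 20 CPM in D2.1 and 39.7, 46.2, 34.4 and 31.7 CPM in D2A1 BALB/c tumors (-0.78 ± 0.20, adjusted p = 0.014), and its adjusted p was 0.089 without the tumors with milk protein or skin markers. Fzd3 was called in culture, with 20.8, 22.8 and 25 CPM in D2.1 and 6.92, 6.26 and 8.38 CPM in D2A1 cells (1.67 ± 0.18, adjusted p = 9.9e-05). Fzd1 was not called in any of the 3 comparisons, with log2 fold changes of 0.53 ± 0.23, 0.45 ± 0.33 and 0.20 ± 0.35.

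The co-receptors split between Ryk and Lrp5, which were higher in D2.1, and Lrp6 and Ror1, which were not called. Ryk, a receptor for Wnt5a among others, had 204, 271 and 180 CPM in cultured D2.1 and 103, 106 and 102 CPM in D2A1 cells (1.08 ± 0.16, adjusted p = 0.00072). BALB/c tumors had 160, 196, 184 and 262 CPM in D2.1 and 61.7, 67.1, 65.7 and 60.4 CPM in D2A1 (1.63 ± 0.17, adjusted p = 6.6e-05), and SCID-beige tumors 247, 178, 190, 229 and 226 CPM and 97.6, 75.7, 83.8, 64.5 and 69.8 CPM (1.44 ± 0.16, adjusted p = 1.3e-05). The lines stood apart in all settings. Lrp5, the partner of Frizzleds in β-catenin signaling, differed by 0.54 ± 0.18, 0.54 ± 0.15 and 0.57 ± 0.18 (adjusted p = 0.041, 0.018 and 0.024). These calls were lost when 1 library was left out in 4 of 6 fits in culture (D2A1 1 and 2, D2.1 1 and 3), 2 of 8 in BALB/c tumors (D2.1 3 and D2A1 4) and 5 of 10 in SCID-beige tumors (D2.1 1 and 3, D2A1 1 to 3). Its close relative Lrp6 differed by -0.18 ± 0.27, adjusted p = 0.63 in culture, 0.52 ± 0.32, adjusted p = 0.24 in BALB/c tumors and 0.39 ± 0.24, adjusted p = 0.25 in SCID-beige tumors.

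Both R-spondin receptors with appreciable levels were higher in D2.1. Lgr6 had 18.1, 19.9 and 31.1 CPM in cultured D2.1 and 3.77, 3.4 and 5.7 CPM in D2A1 cells (2.42 ± 0.29, adjusted p = 0.0002), and 34.9, 10.2, 15.7 and 17.9 against 3.32, 4.55, 3.14 and 4.24 CPM in BALB/c tumors (2.33 ± 0.36, adjusted p = 0.00082). SCID-beige tumors had 20, 13, 79.3, 40.7 and 18.3 CPM in D2.1 and 2.59, 4.55, 4.82, 5.07 and 4.4 CPM in D2A1 (3.0 ± 0.46, adjusted p = 0.00023), and D2.1 tumor 3 was the highest library. Without it the log2 fold change was 2.41. Lgr4, its broadly expressed relative, had 19, 20.6, 8.86 and 7.78 CPM in D2.1 and 5.46, 4.85, 2.85 and 3.12 CPM in D2A1 BALB/c tumors (1.75 ± 0.39, adjusted p = 0.0064), and 11.4, 12, 15.6, 9.2 and 17.1 against 3.19, 1.91, 4.89, 4.1 and 5.72 CPM in SCID-beige tumors (1.72 ± 0.31, adjusted p = 0.00076), with no overlap in either host. In culture its difference was 0.70 ± 0.19, adjusted p = 0.015, a call lost without D2A1 culture 1 or 2 or D2.1 culture 2. Of the R-spondins, Rspo2 was called in SCID-beige tumors only, with 33.1, 39.9, 47.3, 61.6 and 56 CPM in D2.1 and 21.6, 16.8, 32.3, 28.9 and 30.5 CPM in D2A1 (0.87 ± 0.22, adjusted p = 0.008), and its log2 fold change was 0.05 ± 0.14 in culture and 0.29 ± 0.23 in BALB/c tumors. Levels of Rspo2 in BALB/c tumors were 34.1, 52.5, 34.9 and 25.4 CPM in D2.1 and 28, 34.4, 26.4 and 29.4 CPM in D2A1, and in culture 48.1, 47.1 and 37.4 CPM and 43, 41.8 and 43.9 CPM. Rspo3 had 3.25, 4.97 and 3.04 CPM in cultured D2.1 cells and 0 counts in all 3 cultured D2A1 libraries, at least 20.9-fold higher in D2.1 (against 3 counts per library, adjusted p = 0.00015, and 1 with the replicate block and GC slope). In D2.1 tumors Rspo3 was at 0.297, 1.13, 0.446, 2.81 and 1.22 CPM in SCID-beige and 0, 0, 0.0575 and 0.45 CPM in BALB/c mice, and every D2A1 SCID-beige tumor was at 0.

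Among the nuclear effectors, Tcf7l1, a Tcf that mainly represses targets in the absence of β-catenin, stood apart between the lines in every setting. It had 25.7, 23.7 and 39.5 CPM in cultured D2.1 and 9.33, 8.69 and 14.9 CPM in D2A1 cells (1.44 ± 0.27, adjusted p = 0.0027). BALB/c tumors had 86.7, 133, 118 and 89.2 CPM in D2.1 and 7.89, 10.3, 13.9 and 7.69 CPM in D2A1 (3.40 ± 0.26, adjusted p = 7.7e-06). In SCID-beige tumors the values were 116, 145, 67.4, 50.1 and 112 CPM and 18, 13.8, 17.3, 15.4 and 14.7 CPM (2.62 ± 0.26, adjusted p = 6.1e-06). Tcf7l2, the Tcf of intestinal epithelium, was not called in any setting, with differences of -0.19 ± 0.17, -0.46 ± 0.26 and -0.44 ± 0.20. Its levels were 11.2, 9.38 and 12.2 CPM in cultured D2.1 and 12.1, 11.7 and 13.5 CPM in cultured D2A1 cells. Tumors of D2.1 had 20.4, 22.3, 12.5 and 10.9 CPM in BALB/c and 12.8, 16.5, 13.9, 11.5 and 16.5 CPM in SCID-beige mice, and those of D2A1 22.3, 25.8, 19.1 and 22.1 and 13.3, 18.1, 22.7, 20.5 and 21.5 CPM, and the lines overlapped in every setting. Ctnnb1 had 982, 1050 and 1150 CPM in cultured D2.1 and 466, 462 and 559 CPM in cultured D2A1 cells (1.10 ± 0.15, adjusted p = 0.00045). In BALB/c mice, D2.1 tumors had 307, 326, 189 and 203 CPM and D2A1 tumors 378, 357, 169 and 260 CPM. The difference in tumors was -0.22 ± 0.28, adjusted p = 0.59 in BALB/c and 0.14 ± 0.30, adjusted p = 0.76 in SCID-beige mice, where it spread widely within a group, as in the D2A1 SCID-beige tumors with 132, 136, 332, 304 and 389 CPM. The slope of a library's log2 CPM on gene GC content, which ran from -0.0449 to 0.0407 per percent over the 24 libraries, varied within the groups of tumors, and its part in this spread was not tested.

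**Figure D3:**
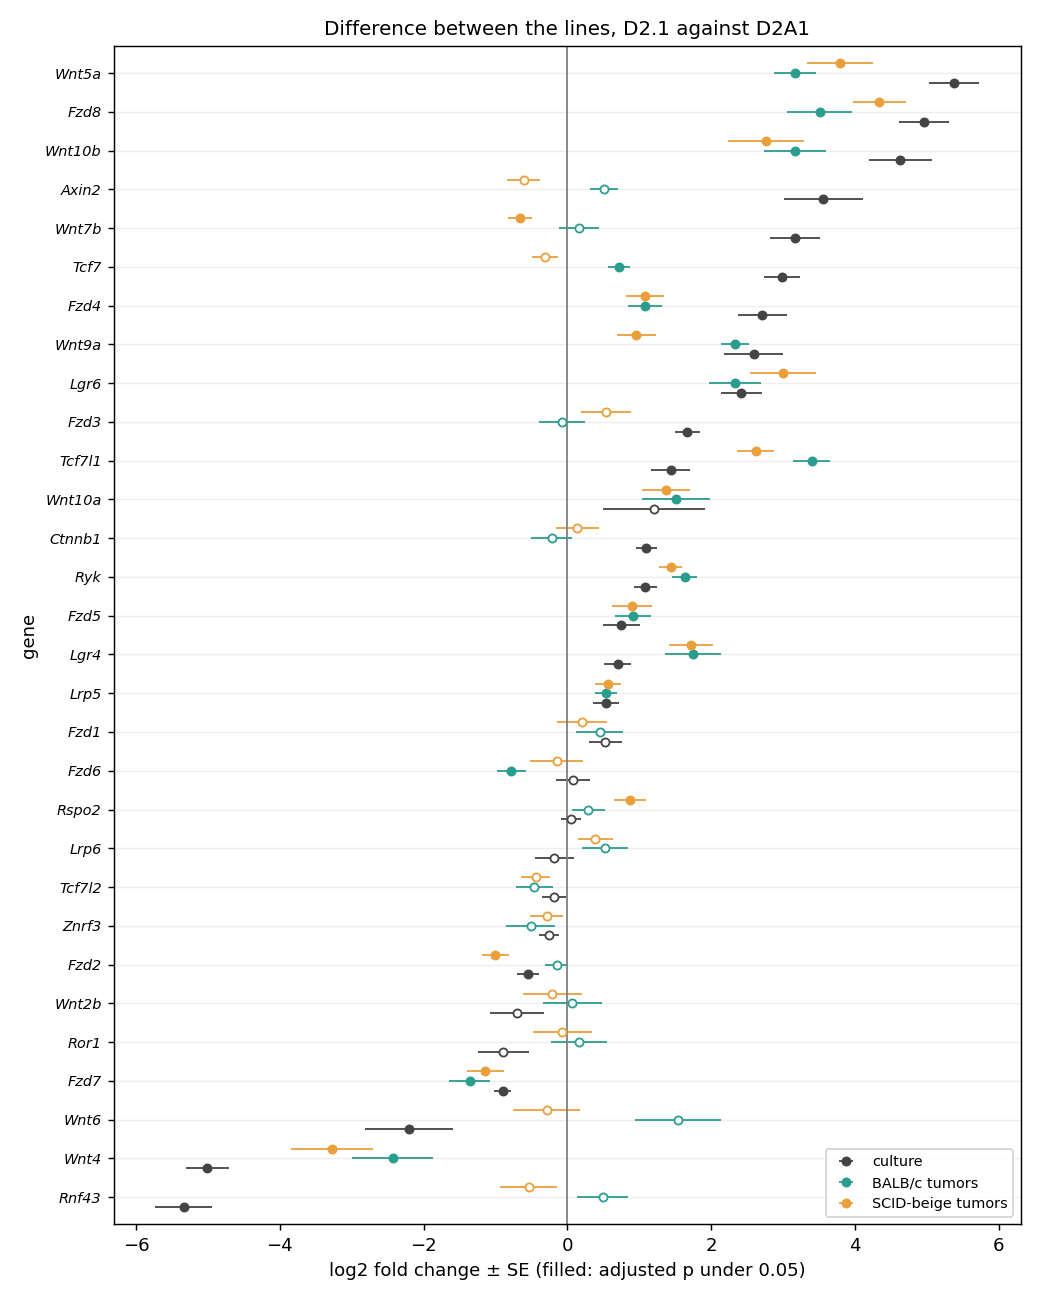
Log2 fold change of D2.1 against D2A1 (x axis, ± SE, with values right of 0 higher in D2.1) for the 30 genes tested in all 3 settings (y axis), in culture, BALB/c tumors and SCID-beige tumors; filled points had an adjusted p under 0.05 in edgeR. Wnt5a, Fzd8 and Wnt10b lie right of 0 and Wnt4 and Fzd7 left of it in each setting, while Axin2, Wnt7b and Rnf43 lie far from 0 in culture and near it in tumors.

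Axin2, Wnt7b and Tcf7 had far larger differences between the lines in culture than in tumors. Axin2 had 12.7, 15.9 and 23.2 CPM in cultured D2.1 cells and 0.926, 0.426 and 2.97 CPM in cultured D2A1 cells, 11.8-fold higher in D2.1 (3.56 ± 0.55, adjusted p = 0.00095), and without D2A1 culture 3, the highest of its group, the log2 fold change was 4.66. BALB/c tumors had 74.7, 79.5, 52.3 and 52.1 CPM in D2.1 and 54, 42.1, 39.4 and 42 CPM in D2A1 (0.51 ± 0.20, adjusted p = 0.068). In SCID-beige tumors it had 37.7, 44, 24.1, 30.1 and 61.1 CPM in D2.1 and 57.5, 46, 63.7, 64.4 and 68.5 CPM in D2A1 (-0.61 ± 0.23, adjusted p = 0.055). The groups overlapped in both hosts and neither difference was called, with adjusted p not far above the threshold in each. With the GC slope of each library as a covariate, chosen after seeing the data, both were called, in opposite directions (log2 fold changes of 0.71 and -0.65, adjusted p = 0.001 and 0.028).

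Wnt7b, a β-catenin-activating ligand of epithelia, had 45.3, 55.8 and 38.4 CPM in cultured D2.1 and 6.98, 6.14 and 2.4 CPM in cultured D2A1 cells, 9.03-fold higher in D2.1 (3.17 ± 0.35, adjusted p = 0.00014). In BALB/c tumors, 313, 108, 170 and 261 CPM in D2.1 and 152, 204, 222 and 167 CPM in D2A1 overlapped (0.16 ± 0.28, adjusted p = 0.71). In SCID-beige tumors D2.1 was below D2A1, at 189, 126, 167, 193 and 183 CPM against 280, 352, 234, 228 and 256 CPM (-0.66 ± 0.17, adjusted p = 0.0082), and the groups did not overlap. It was the only one of the genes called in opposite directions in culture and in a tumor setting. Tcf7, the Tcf also used by T cells, had 63.3, 75.5 and 53.1 CPM in cultured D2.1 and 9.51, 9.42 and 5.36 CPM in cultured D2A1 cells (2.99 ± 0.25, adjusted p = 2.5e-05). BALB/c tumors had 108, 88.7, 93.8 and 122 CPM in D2.1 and 60.2, 61.6, 67.2 and 55.3 CPM in D2A1 (0.72 ± 0.15, adjusted p = 0.0042), where T cell markers were also higher in D2.1, and their part was not tested. That call was lost without the tumors with milk protein or skin markers (adjusted p = 0.065). In SCID-beige tumors, 65.1, 74.9, 62.7, 91.6 and 56 and 111, 83.2, 76.1, 66.6 and 94.2 CPM overlapped (-0.31 ± 0.18, adjusted p = 0.2).

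The ligase Rnf43, itself a β-catenin target, went the other way in culture, with 0.174, 0.237 and 0.0573 CPM in D2.1 and 6.67, 6.5 and 7.13 CPM in D2A1 cells (-5.34 ± 0.39, adjusted p = 1.2e-05). In tumors it differed by 0.49 ± 0.36, adjusted p = 0.33 in BALB/c mice, with 3.07 to 7.45 CPM in D2.1 and 2.55 to 4.49 CPM in D2A1, and by -0.54 ± 0.40, adjusted p = 0.33 in SCID-beige mice. Znrf3, its paralog, was not called in any of the 3 comparisons (-0.26 ± 0.14, -0.51 ± 0.34 and -0.29 ± 0.23).

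Whether the line difference itself changed between culture and SCID-beige tumors was tested as an interaction over those 4 groups. Of 38 genes tested, 7 were called, 2 higher and 5 lower, against 12.8% of all genes (4.62% higher and 8.18% lower). The line difference was smaller, or of opposite sign, in tumors for Axin2 (-4.17 ± 0.56, adjusted p = 5.8e-05), Wnt7b (-3.82 ± 0.37, adjusted p = 1.1e-06), Tcf7 (-3.28 ± 0.31, adjusted p = 1.1e-06), Wnt9a (-1.62 ± 0.51, adjusted p = 0.042) and Fzd4 (-1.62 ± 0.45, adjusted p = 0.022). It moved toward D2.1 in tumors for Rnf43 (4.81 ± 0.65, adjusted p = 5.9e-05) and for Wnt7a, whose fitted value rests on D2A1 culture since the other 3 groups were at or near 0 (adjusted p = 0.033). The calls of Axin2, Wnt7b, Tcf7 and Rnf43 held with each of the 16 libraries left out in turn, with Axin2 at -5.27 without D2A1 culture 3. Wnt9a kept its call in 5 of 16 such fits, Fzd4 in 14 (not without D2A1 culture 1 or D2.1 culture 3) and Wnt7a in 12 (not without D2.1 SCID-beige tumor 4 or any of the D2A1 cultures). Wnt9a lost it without any D2.1 culture, D2A1 culture 1 or 2, D2.1 SCID-beige tumor 1 or 4, or D2A1 SCID-beige tumor 1, 3, 4 or 5.

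SCID-beige tumors were then set against cultured cells of their own line. Tumors and cultures stood in separate tables that list different sets of gene IDs, tumors hold host cells and cultures do not, so that growth in the mouse, host RNA and processing cannot be told apart in these differences. The tumors used here are the ones used in the SCID-beige comparison of the lines. For D2.1, 23 of 37 tested genes were called, 16 higher and 7 lower in tumors, where 53.1% of all genes were called, 30.8% higher and 22.3% lower. For D2A1, 25 of 35 were called, 16 higher and 9 lower, against 58.1% of all genes (33.6% higher and 24.5% lower). Median log2 fold changes were 0.49 and 0.64, beside 0.09 and 0.10 over all genes. With genes at 0 in 1 group placed at their bound, the medians were the same. With the GC slope of each library as a covariate, 14 genes were called in D2.1. The slopes of D2.1 cultures (-0.0225 to -0.0184) and SCID-beige tumors (-0.0174 to 0.028) did not overlap. GC slope and setting thus varied together in that fit.

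Ligands were most of the genes that rose. In each line 9 Wnt genes were higher in tumors and 1 was lower, of 11 tested in D2.1 and 12 in D2A1. Some of these passed the count filter through tumors alone, so that only a rise could be called. Among them, Wnt2 had 0 counts in every culture. In cultured D2A1 cells Wnt5a, Wnt5b and Wnt11 had means of 0.161, 0.158 and 0.0801 CPM. Wnt7a in D2A1 passed through culture alone, so that only a fall could be called. The split between rises and falls was thus partly fixed in advance. Those higher in both lines were Wnt2, Wnt4, Wnt5a, Wnt6, Wnt7b, Wnt9a, Wnt10a and Wnt11. D2.1 added Wnt2b (1.40 ± 0.46, adjusted p = 0.023), a call lost without any 1 of the cultures, and D2A1 added Wnt5b, with 0.124, 0.122 and 0.228 CPM in culture and 0.598, 0.462, 1.77, 0.784 and 1.14 CPM in tumors (2.54 ± 0.66, adjusted p = 0.0066).

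Wnt7b rose in D2A1 from 6.98, 6.14 and 2.4 CPM in culture to 280, 352, 234, 228 and 256 CPM in tumors, 52.8-fold (5.72 ± 0.36, adjusted p = 2.7e-07). In D2.1 it went from 45.3, 55.8 and 38.4 to 189, 126, 167, 193 and 183 CPM, 3.76-fold (1.91 ± 0.20, adjusted p = 2.2e-05). Wnt9a rose by 3.88 ± 0.38, adjusted p = 1.2e-05 in D2.1 and 5.49 ± 0.39, adjusted p = 5.4e-07 in D2A1. For these ligands the tumor levels were far above every culture level of their line. Wnt5a rose by 2.66 ± 0.37, adjusted p = 0.00014 in D2.1 and 4.22 ± 0.74, adjusted p = 0.00052 in D2A1, and Wnt4 by 3.36 ± 0.85, adjusted p = 0.0064 (2.58 without D2.1 tumor 4) and 1.60 ± 0.27, adjusted p = 0.00046. Wnt10a, with 6.39, 7.53 and 1.49 CPM in cultured D2.1 and 3.64, 2.61 and 0.456 CPM in cultured D2A1 cells, rose by 2.51 ± 0.53, adjusted p = 0.0023 and 2.32 ± 0.53, adjusted p = 0.0029.

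At lower levels, Wnt11, a ligand of planar polarity with the Tcf/Lef letters in 1 of its 2 listed promoters, had 0.291, 0.189 and 0.917 CPM in D2.1 culture and 1.84, 1.76, 1.51, 5.33 and 3.65 CPM in D2.1 tumors (2.63 ± 0.68, adjusted p = 0.0071), or 3.53 without D2.1 culture 3. In D2A1 it had 0.0618, 0.122 and 0.057 CPM in culture and 4.26, 2.9, 2.79, 4.82 and 1.93 CPM in tumors (5.27 ± 0.58, adjusted p = 1.7e-05). Wnt6 had 1.49, 1.7, 3.57, 1.87 and 0.609 CPM in D2.1 tumors and rose by 3.13 ± 0.75, adjusted p = 0.0047 (3.95 without D2.1 culture 2), and in D2A1 tumors it rose by 1.17 ± 0.46, adjusted p = 0.045, a call lost without D2A1 culture 1 or 3 or SCID-beige tumor 1, 2 or 4. Wnt2, a ligand of stromal cells in several tissues, had 0 counts in every culture. It had 3.46, 3.56, 2.72, 2.11 and 3.07 CPM in D2A1 tumors, at least 16.6-fold higher than 3 counts per library (adjusted p = 1.5e-05), and 1.67, 0.453, 0, 1.7 and 2.07 CPM in D2.1 tumors, at least 7.23-fold higher (adjusted p = 0.0095), where tumor 3 was at 0 and the call could be made in 5 of 8 fits with a library left out, the gene being too low for a test in the others. Fibroblast markers were above culture in tumors of both lines, and their part in these rises was not tested.

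The ligands that fell were Wnt10b in D2.1 (-1.39 ± 0.41, adjusted p = 0.015), a call lost without D2.1 culture 3, and Wnt7a in D2A1, which was at 0 in all 5 tumors and at least 12.5-fold lower there (adjusted p = 9.2e-05). Axin2 rose in both lines. In D2A1 it went from 0.926, 0.426 and 2.97 CPM in culture to 57.5, 46, 63.7, 64.4 and 68.5 CPM, 41.5-fold (5.37 ± 0.49, adjusted p = 3.7e-06), and without D2A1 culture 3 the log2 fold change was 6.46. In D2.1 it went from 12.7, 15.9 and 23.2 to 37.7, 44, 24.1, 30.1 and 61.1 CPM, 2.34-fold (1.22 ± 0.32, adjusted p = 0.007), with no overlap in either line. Tcf7 rose 10.7-fold in D2A1 (3.42 ± 0.26, adjusted p = 1e-06) and was not called in D2.1 (0.16 ± 0.19, adjusted p = 0.51), and T cell markers summed to 8.71 to 12.7 CPM in these tumors and 2.22 to 5.37 CPM in culture. Tcf7l1 rose in D2.1 (1.76 ± 0.34, adjusted p = 0.0014) and was not called in D2A1 (0.54 ± 0.22, adjusted p = 0.057). Tcf7l2 rose in D2A1 (0.64 ± 0.21, adjusted p = 0.022), except without D2A1 culture 1 or 2, and gave 0.41 ± 0.22, adjusted p = 0.14 in D2.1.

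Receptors showed changes in both directions. Fzd4 rose in D2A1, from 1.3, 2.92 and 2.74 to 10.8, 6.59, 10.8, 8.98 and 18 CPM (2.26 ± 0.39, adjusted p = 0.00047), and in D2.1 by 0.66 ± 0.25, adjusted p = 0.045, the latter lost without D2.1 culture 1 or 2 or SCID-beige tumor 1 or 5. Endothelial markers, at 0.228 to 0.426 CPM in D2A1 culture, were also higher in tumors, and their part was not tested. Fzd2 (0.91 ± 0.15, adjusted p = 0.00027) and Fzd1 (0.68 ± 0.25, adjusted p = 0.034) rose in D2A1, and the Fzd1 call was lost without D2A1 culture 1 or 2 or SCID-beige tumor 3 or 5. Fzd5 and Fzd6 fell in both lines. Fzd5 fell from 24.5, 25.7 and 40.9 to 11.4, 12.1, 11.7, 13.8 and 17.5 CPM in D2.1 (-1.16 ± 0.23, adjusted p = 0.0016) and from 14.6, 15.7 and 23.8 to 5.45, 3.76, 11.3, 6.45 and 8.74 CPM in D2A1 (-1.32 ± 0.32, adjusted p = 0.0045). Fzd6 fell from 66.4, 76.1 and 113 to 29.6, 26.4, 10.4, 65.3 and 38.6 CPM in D2.1 (-1.30 ± 0.42, adjusted p = 0.022), a call lost without D2.1 culture 3 or SCID-beige tumor 1 or 2, and from 70.8, 67.4 and 104 to 28.1, 22.6, 41.9, 40.3 and 55 CPM in D2A1 (-1.09 ± 0.27, adjusted p = 0.0047). Fzd9 fell in D2A1 (-2.02 ± 0.62, adjusted p = 0.016), except without D2A1 culture 2.

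The noncanonical receptor Ror2 had 0 counts in all cultures and was at least 7.74-fold higher than 3 counts per library in D2A1 tumors (adjusted p = 0.00084) and at least 4-fold higher in D2.1 tumors (adjusted p = 0.0089). Ror1 rose in D2.1, from 3.08, 3.55 and 2.29 to 7.26, 8.55, 20.2, 3.98 and 11.1 CPM (1.81 ± 0.49, adjusted p = 0.0091), with 0.98 ± 0.41, adjusted p = 0.06 in D2A1. Lgr4 fell in both lines, from 23.2, 30 and 31.6 CPM in D2.1 culture (-1.08 ± 0.24, adjusted p = 0.0029) and from 15.5, 15.7 and 21 CPM in D2A1 culture (-2.12 ± 0.31, adjusted p = 0.00014). Lgr5, a stem cell receptor with 2 counts over the D2.1 cultures, had a ratio of 16.9-fold (95% interval 4.44 to 143) in D2.1 tumors, and its call (adjusted p = 0.023) held in 3 of 8 fits with a library left out. Without D2.1 culture 1 or 3 it was lost, and in the other 3 fits the gene was too low for a test. Znrf3 fell from 27.4, 36.7 and 31.4 to 12.8, 9.63, 16.1, 19.7 and 16.9 CPM in D2.1 (-1.05 ± 0.24, adjusted p = 0.0034) and from 37.9, 37 and 40 to 13, 15, 20.3, 19.3 and 24 CPM in D2A1 (-1.05 ± 0.21, adjusted p = 0.0011). Rnf43 rose in D2.1 (3.49 ± 0.63, adjusted p = 0.00085) and fell in D2A1 (-1.33 ± 0.33, adjusted p = 0.0049). The lines, far apart in culture, had 0.948 to 2.56 and 1.25 to 3.86 CPM in tumors.

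Rspo2 fell in D2A1 (-0.71 ± 0.21, adjusted p = 0.014) and gave 0.14 ± 0.22, adjusted p = 0.62 in D2.1. Rspo3 fell in D2.1 (-1.64 ± 0.61, adjusted p = 0.039), a call that held in 1 of 8 fits with a library left out, the one without SCID-beige tumor 4, at -2.23. Ctnnb1 fell from 982, 1050 and 1150 to 235, 191, 370, 305 and 316 CPM in D2.1 (-1.87 ± 0.21, adjusted p = 3.5e-05). In D2A1 it was also called lower (-0.93 ± 0.33, adjusted p = 0.032), but not without any 1 of the D2A1 cultures. With the GC slope of each library as a covariate its log2 fold change turned to 0.66 (adjusted p = 0.022). The slopes of D2A1 cultures (-0.0449 to -0.0297) and SCID-beige tumors (-0.0136 to 0.0352) did not overlap, so slope and setting varied together. Under that covariate the D2A1 values of Fzd6 (0.11), Wnt6 (-0.16) and Rspo2 (0.05) also changed sign, while those of Axin2 (6.03), Tcf7 (3.10) and Wnt7b (5.14) stayed called. Same-numbered D2A1 libraries correlated at 0.131 to 0.273, but D2A1 culture 3 correlated more with tumor 5 (0.305) than with tumor 3 (0.227). With both the replicate block and the GC slope, 3 genes were called, Wnt7b, Wnt10a and Tcf7, and Axin2 had a log2 fold change of 0.79. That fit has nearly as many terms as libraries, so its lost calls say little.

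**Figure D4:**
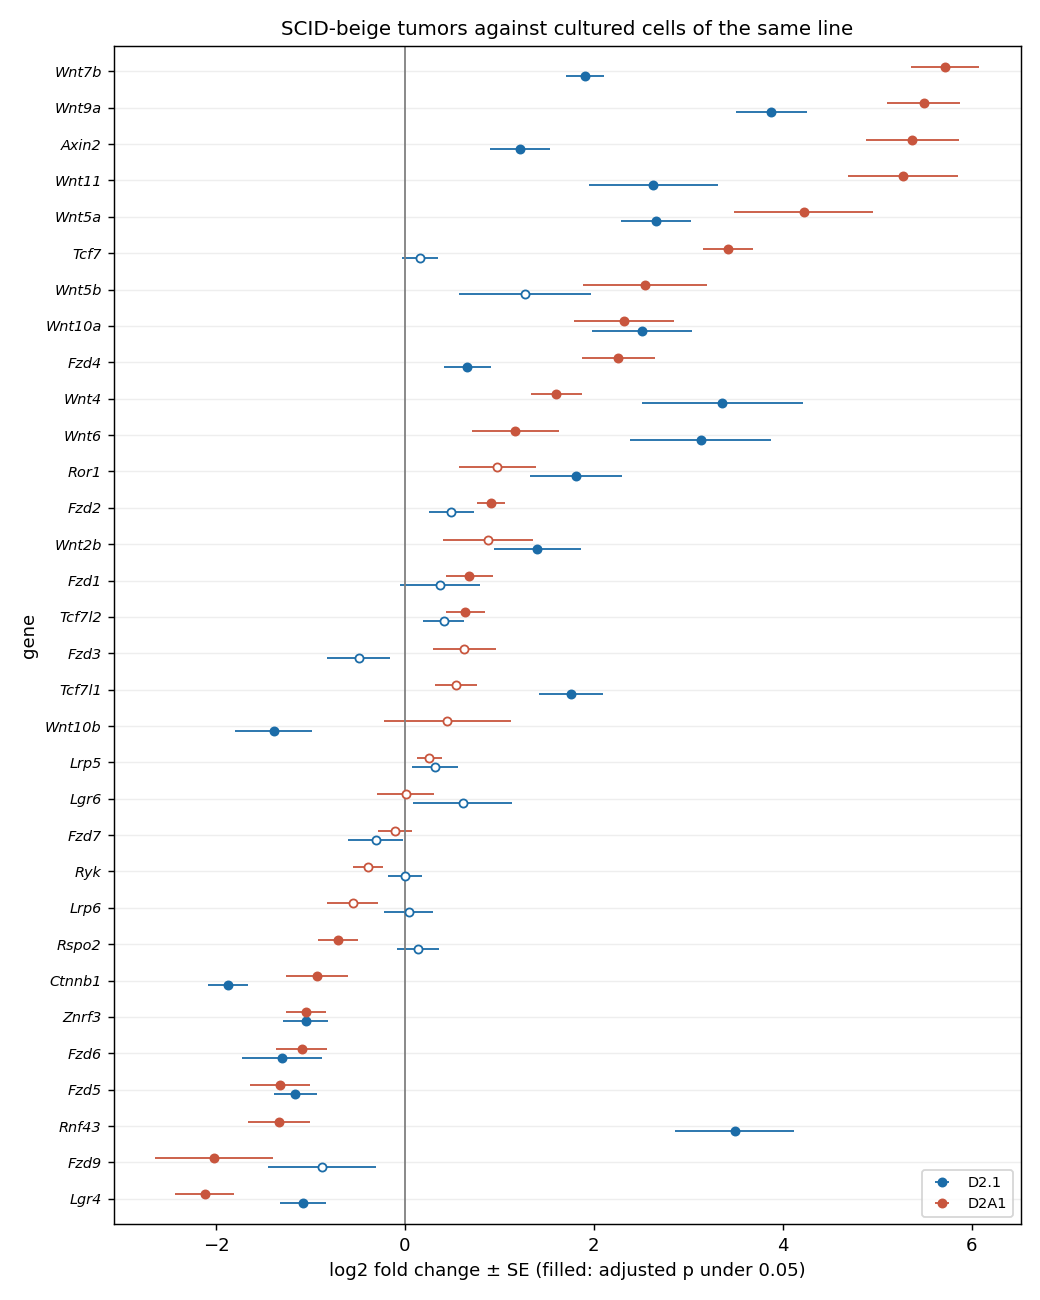
Log2 fold change of SCID-beige tumors against cultured cells (x axis, ± SE, with values right of 0 higher in tumors) for the 32 genes tested in both lines with counts in every group (y axis), in D2.1 (blue) and D2A1 (red); filled points had an adjusted p under 0.05 in edgeR. Wnt7b, Wnt9a and Axin2 rose in both lines, with larger values in D2A1, and Rnf43 rose in D2.1 and fell in D2A1.

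Few genes were called between the immunocompetent and the immunodeficient hosts of a line. In D2.1 tumors 1 of 37 tested genes was called between BALB/c and SCID-beige hosts, where 0.891% of all genes were called (0.871% higher and 0.0201% lower in BALB/c). That gene was Lef1, the Tcf/Lef factor of T cell precursors and hair follicles, with 9.55, 0.827, 1.67 and 6.55 CPM in BALB/c and 0.178, 0.34, 0.279, 0.469 and 0 CPM in SCID-beige tumors (4.13 ± 0.83, adjusted p = 0.04). BALB/c tumors 1 and 4 held most of its reads. Over D2.1 BALB/c tumors 1 to 4, the 7 skin markers, 6 of them detected, summed to 51.9, 1.71, 5 and 165 CPM. The 6 milk protein markers summed to 407, 0.886, 0.575 and 60.3 CPM and the 11 T cell markers to 220, 117, 271 and 298 CPM, so that tumors 1 and 4 were also highest in skin and milk protein markers. Without tumors 1 and 4 the Lef1 log2 fold change was 2.26 (adjusted p = 1), and leaving out a single library kept the call in 1 of 9 fits, that without BALB/c tumor 2. The part of these cells in the difference was not tested. Lef1 was also higher in D2.1 than in D2A1 BALB/c tumors, which had 0.282, 0, 0.237 and 0.0557 CPM (4.90 ± 0.97, adjusted p = 0.0034, and 4.30 without tumor 1), and this was not called without tumors 1 and 4 (adjusted p = 0.054).

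In D2A1 tumors 1 of 35 tested genes was called, against 1.17% of all genes (0.906% higher and 0.261% lower in BALB/c). Wnt9a had 19.8, 18.6, 23.8 and 21.5 CPM in BALB/c and 39.6, 26.3, 41.9, 39.6 and 48.3 CPM in SCID-beige tumors, without overlap (-0.92 ± 0.18, adjusted p = 0.036), and the call held in 2 of 9 fits with a library left out, those without BALB/c tumor 3 or SCID-beige tumor 2. The other 10 ligands tested were not called and lay in both directions, from Wnt6 (-1.12 ± 0.38, adjusted p = 0.25), Wnt4 (-0.92 ± 0.28, adjusted p = 0.17) and Wnt7b (-0.56 ± 0.18, adjusted p = 0.2) to Wnt2b (0.67 ± 0.40, adjusted p = 0.7) and Wnt5a (0.88 ± 0.47, adjusted p = 0.61), with a median of -0.07 over all 11 ligands tested. For Axin2, the host difference was 0.70 ± 0.26, adjusted p = 0.33 in D2.1 and -0.45 ± 0.16, adjusted p = 0.29 in D2A1, and for Tcf7 0.54 ± 0.18, adjusted p = 0.25 and -0.51 ± 0.17, adjusted p = 0.22. The difference between the lines in their host effect was tested over all 18 tumors. It was called for 0 of 38 genes with edgeR, where 0.0187% of all genes were called, and for 2 genes with DESeq2. The smallest p-values were those of Tcf7 (1.03 ± 0.23, adjusted p = 0.16), Wnt9a (1.37 ± 0.36, adjusted p = 0.25) and Axin2 (1.12 ± 0.32, adjusted p = 0.3), with DESeq2 calling the first 2.

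The wider pathway was counted over 6 lists, which share a few genes with the 49 and with each other. Of 3 Wnt release genes, Wls, the carrier of Wnt proteins to the cell surface, was higher in D2.1 in culture (0.86 ± 0.21, adjusted p = 0.0093), in BALB/c tumors (0.64 ± 0.16, adjusted p = 0.011) and in SCID-beige tumors (0.60 ± 0.19, adjusted p = 0.025). Porcn, the enzyme that attaches the lipid, turned from higher in cultured D2.1 cells (1.47 ± 0.22, adjusted p = 0.00085) to lower in D2.1 tumors of BALB/c (-0.96 ± 0.17, adjusted p = 0.0019) and SCID-beige mice (-1.63 ± 0.25, adjusted p = 0.00028). Its interaction of line and setting was -3.08 ± 0.39, adjusted p = 3e-05, and its levels were 3.33 to 5.17 CPM in cultured D2A1 cells and 32.1 to 67.8 CPM in D2A1 SCID-beige tumors. The same turn from higher in culture to lower in SCID-beige tumors was seen in Wnt7b. Notum, a secreted enzyme that removes the lipid, was lower in D2.1 in SCID-beige tumors (-1.31 ± 0.32, adjusted p = 0.0066).

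Between the lines, 44.9% of all genes were called in culture, 32.6% in BALB/c tumors and 32.1% in SCID-beige tumors, beside which the counts of each list stand. The destruction complex and Dishevelled list had 1 of 13 tested genes called in culture, 2 in BALB/c tumors and 3 in SCID-beige tumors, and medians of 0.12, -0.02 and -0.02. Of the nuclear cofactors, 8 were higher and 2 lower in cultured D2.1 cells of 14 tested, 8 higher and 1 lower of 15 in BALB/c tumors, and 4 higher and 1 lower of 14 in SCID-beige tumors, with medians of 0.64, 0.56 and 0.18. Tle2, a Groucho co-repressor, was higher in each (2.78 ± 0.22, 3.09 ± 0.23 and 2.33 ± 0.38), and Pygo1, a co-activator, was lower in each, with 0 counts in cultured D2.1 cells and 5.31 to 9.75 CPM in cultured D2A1 cells. Targets and feedback genes split, with 5 higher and 3 lower of 12 in culture, 1 and 1 of 14 in BALB/c tumors, and 4 and 4 of 14 in SCID-beige tumors, and medians of 0.53, 0.20 and -0.30. Apcdd1, a membrane antagonist induced by the pathway, was higher in D2.1 in each (3.24 ± 0.21, 3.36 ± 0.21 and 2.96 ± 0.27). Myc, a target of many pathways, was lower in each (-1.59 ± 0.15, -2.06 ± 0.21 and -1.39 ± 0.29). Nkd2, a feedback inhibitor that binds Dishevelled, was lower in D2.1 in culture (-2.39 ± 0.40, adjusted p = 0.0015) and SCID-beige tumors (-2.64 ± 0.42, adjusted p = 0.00035).

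Planar polarity genes gave 4 higher and 3 lower of 11 in culture (44.9% of all genes called), 4 and 1 of 12 in BALB/c tumors (32.6%), and 4 and 2 of 12 in SCID-beige tumors (32.1%). Prickle2 was higher (4.86 ± 0.81, 4.79 ± 0.47 and 4.65 ± 0.33) and the pseudokinase Ptk7 was lower in D2.1 throughout (-1.04 ± 0.18, -0.95 ± 0.18 and -0.89 ± 0.20). Beside the same shares, the list of secreted antagonists gave 3 higher and 0 lower of 4 in culture, 5 and 0 of 9 in BALB/c tumors, and 3 and 1 of 8 in SCID-beige tumors. In each setting the higher genes of this list include Apcdd1, the membrane antagonist already counted among the targets. Dkk3 and the secreted antagonist Sfrp2 were higher in D2.1 in each. Dkk3 is the family member that the study itself followed up in these samples, and so is no independent evidence of a direction. In BALB/c tumors Sfrp2 had 197 to 499 CPM in D2.1 and 12.4 to 20.8 CPM in D2A1 (4.47 ± 0.31, adjusted p = 5.1e-06), and fibroblast markers, whose part was not tested, differed in the same direction.

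Against culture, SCID-beige tumors had 7 targets and feedback genes higher and 2 lower of 14 in D2.1, and 6 higher and 2 lower of 13 in D2A1, where 53.1% and 58.1% of all genes were called. Shares near these are no result about a list. Nkd2 rose in both lines, by 6.18 ± 0.76, adjusted p = 6.9e-05 and 6.41 ± 0.28, adjusted p = 2.4e-08, beside the rise of Axin2, whereas Ccnd1 was called in D2.1 (0.68 ± 0.24, adjusted p = 0.035) and not in D2A1 (-0.30 ± 0.16, adjusted p = 0.13), and Myc in neither (0.23 ± 0.30 and 0.0 ± 0.24). Nkd2 had 0.291 to 0.426 CPM in cultured D2.1 and 1.4 to 2.53 CPM in cultured D2A1 cells. All 3 Wnt release genes were higher in D2A1 tumors, with Porcn at 3.51 ± 0.31, adjusted p = 2.8e-06, and 1 of 3 in D2.1 tumors. Nuclear cofactors gave 4 higher and 3 lower of 13 in D2.1 and 8 higher and 1 lower of 14 in D2A1, planar polarity genes 6 and 1 of 12 and 4 and 2 of 11, and the destruction complex list 1 and 4 of 13 and 3 and 1 of 13. The list of secreted antagonists, Apcdd1 included, had 8 of 9 tested genes higher in D2.1 tumors and 7 of 7 in D2A1 tumors. With genes at 0 in culture placed at their lower bound, the medians were 3.68 and 4.83. Most of the tested genes were at or near 0 in culture, as Dkk2 (0 CPM in both lines) and Sfrp4 (means of 0.0352 CPM in D2.1 and 0.0206 CPM in D2A1). Such genes passed the count filter through tumors alone. Only a rise could then be called, so this count is no result about the list. Fibroblast markers were also above culture in these tumors, and their part was not tested. Between hosts, 1 gene outside the 49 was called over the 6 lists, Nkd2 in D2A1 (-1.45 ± 0.19, adjusted p = 0.0097), lower in BALB/c tumors.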

How the data were processed

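Per the labels and the study's methods, RNA of D2.1 and D2A1 cells and tumors was sequenced and assigned to genes, and the submitters' processing notes name STAR and mm10. The authors deposited raw read counts per gene and FPKM values (counts divided by depth and gene length) in 1 table of cells and 1 of tumors. The counting tool, its annotation and its strand setting are not given in the sources used here. Counts were joined by Ensembl ID (34519 shared of 35275 and 54532 IDs), and IDs without a match held 0.0969% of cell and 0.00594% of tumor counts. Symbols were taken from GENCODE M21.

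Counts were normalized by TMM, filtered with filterByExpr and tested with edgeR 4.0.16 (quasi-likelihood, robust, R 4.3.3), with Benjamini-Hochberg adjustment over all genes tested and a threshold of 0.05, separately for each comparison and over 4 groups for interactions. DESeq2 1.42.0 was an alternative. In simulated counts where 200 genes differed by a log2 fold change of 2, 91% were recovered for the culture comparison and 60.5% for the line by host interaction, over 12293 and 15646 genes. CPM are the joined counts per TMM-scaled library, and FPKM were used within a table only. A group of zeros was set to a floor of 3 counts per library, floors and intervals covering counting error only. Total counts per library ran from 13566949 to 24818234.

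Replicate numbers were checked by the correlation of same-numbered libraries' deviations from their group means. Every same-numbered pair lay over 0.1 before rounding in the cultures (r = 0.184 to 0.491) and the BALB/c tumors (0.1 to 0.491). The D2A1 cultures and SCID-beige tumors (0.131 to 0.273) met this too, and no other comparison did. Some differently numbered pairs correlated as strongly or more, so this check does not show pairing by number. Nothing in the labels ties the numbers to a shared day or animal.

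Members and lists were chosen with earlier results of these data known. Every called gene was named. Per-library values were owed to the called genes with the largest fold changes among those at 1 FPKM or more in the higher group and without overlap (up to 8 in each direction), to Axin2, the Tcf/Lef genes and Ctnnb1, and to the leading Wnt, Fzd and R-spondin. Alternatives were DESeq2 and its size factors, other count filters, a fold threshold, 1 fit of all tumors, the replicate block, leaving out each library and, chosen after seeing the data, each library's GC slope as a covariate, alone or with the block.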

Additional observations from a re-analysis of the deposited data

Results flagged for a closer look

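Over 151 combinations of a gene and a group of 4 or 5 tumors, 7 held a library that stood apart from the others by Dixon's test, where chance gives about 1 in 20. In D2.1 BALB/c tumors these were Wnt1 in tumor 1 at 0.994 CPM, Fzd3 in tumor 2 at 13.8 CPM and Fzd9 in tumor 4 at 2.12 CPM. Tumors 1 and 4 were those with milk protein or skin markers, and Wnt1 had 0 to 2 counts in the other 3 tumors of the group. In D2A1 tumors they were Wnt5b in BALB/c tumor 3 at 1.96 CPM and, in SCID-beige hosts, Fzd10 in tumor 3 at 1.16 CPM, Ror2 in tumor 4 at 3.08 CPM and Lgr6 in tumor 1 at 2.59 CPM, the last being the low one.

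The difference between the lines changed between culture and SCID-beige tumors, by the test of the interaction itself, for 7 genes. On the log2 scale it shifted by -4.17 for Axin2, -3.82 for Wnt7b, -3.28 for Tcf7, -1.62 for Wnt9a, -1.62 for Fzd4, 4.81 for Rnf43 and 9.71 for Wnt7a. The value for Wnt7a depends on the count added to zeros and has no meaning as a fold, since Wnt7a had reads almost only in cultured D2A1 cells.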

How the results depend on the processing

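Leaving out 1 library at a time gave 946 values for called genes, of which 845 kept their call and direction, 101 lost the call and 0 changed direction. Other settings gave 803 values, of which 721 kept both, 71 lost the call and 11 changed direction. Of 23 genes called in tumors against culture for D2.1, 14 were called with the GC slope. Of 17 called between the lines in BALB/c tumors and 25 in tumors against culture for D2A1, 3 and 3 were called with the replicate block and GC slope together. Those fits have nearly as many terms as libraries, so the loss of calls says little. Between hosts of D2.1, where 1 gene was called, DESeq2 called 4 (Lef1, Wnt5b, Rnf43 and Rspo3), and the replicate block, the GC slope and the fit without the tumors with milk protein or skin markers each called 0. Leaving out 1 library gave 0 to 2. Between hosts of D2A1, where 1 was called, DESeq2 called 3 (Wnt9a, Wnt4 and Fzd2) and the GC slope 6. The replicate block, 1 fit of all tumors and an added cutoff of 1 on the absolute log2 fold change each gave 0. Between these D2A1 hosts, leaving out 1 library gave 0 to 1. DESeq2 called 2 line by host interactions against 0 with edgeR. For the line by setting interaction, leaving out 1 library gave 4 to 8 calls against 7, the lowest without D2A1 culture 1. At 2 FPKM rather than 1, 19 rather than 29 genes were present in D2A1 SCID-beige tumors.

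Direction changed in the GC settings only. In tumors against culture for D2A1 the GC slope gave -0.16 for Wnt6, 0.11 for Fzd6, 0.05 for Rspo2 and 0.66 for Ctnnb1. With the replicate block as well, the values were -1.58 for Wnt4, 0.08 for Fzd5, 0.78 for Fzd9, 0.92 for Rspo2, 1.43 for Ctnnb1 and 0.04 for Znrf3, and Wnt10a gave -0.05 between the lines in BALB/c tumors. In tumors against culture, GC slope and setting varied together. The cause of these changes was not tested. The replicate block alone ended 5 calls: Lef1 between hosts of D2.1, Wnt9a between hosts of D2A1, Wnt7a in the line by setting interaction, and Wnt2b and Fzd4 in tumors against culture for D2.1. In the comparisons of hosts and of tumors against culture for D2.1, not every same-numbered pair correlated above 0.1. Genes near the floor of 0.142 to 0.204 CPM, among them most untested ligands, were not detectable at this depth.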
